A study of Mus musculus with 6 samples.

Results

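The regions described here are places in the mouse cerebellar genome where a loss and a gain of 5-hydroxymethylcytosine (5hmC) were listed side by side. They comprise the regions listed by the authors as specific to rCGG mice that had a region listed as specific to wildtype mice on the same chromosome at a gap under 10 kb, together with those wildtype-specific partners. The gap was counted from edge to edge, and an overlap counted as a gap of 0. The members were thus chosen by the positions of the listed regions, and these selected 637 of 12969 regions: 313 of 4311 rCGG-specific and 324 of 8658 wildtype-specific regions, joined in 334 pairs. The study profiled cerebellar genomic DNA of 3 wildtype littermates and 3 animals titled rCGG, whose genotype is labelled FXTAS, all of the C57BL/6 strain and 16 weeks old. FXTAS, fragile X-associated tremor/ataxia syndrome, is a neurodegenerative disease of older people whose FMR1 gene holds a CGG repeat in the premutation range. The labels do not give the promoter that drives the repeat, its length or the sex of the animals, and whole cerebellum mixes granule cells, Purkinje cells and glia, so a change in 1 cell type and a change in the mixture cannot be told apart.

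5hmC is made from 5-methylcytosine by the TET enzymes. It is both an intermediate of active demethylation and a stable mark, and it accumulates in neurons, where it is found mostly over gene bodies and distal regulatory elements. In these libraries 5hmC was tagged with a modified glucose, biotinylated and captured, so a region marks a stretch of enriched fragments and not a level at a single cytosine. The fragments kept for sequencing had been selected at 150 to 300 bp including adapters, per the labels' protocols, and opposite calls closer than this lie near the resolution of the assay.

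The files give a position, a width and a score for each region and no value per animal. The spread between animals and the depth of the libraries are therefore unknown, no test between the genotypes was possible, and all values below describe how the listed regions are arranged. Intervals are 95% exact intervals and cover counting error only. The positions chose the pairs, so their number and gaps are descriptions. No gene is named, because the gene table used here is of another build than the mm9 coordinates of the regions.

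Opposite regions close to each other made up a small part of both lists. The rCGG-specific members were 7.26% of their list (interval 6.50% to 8.08%), and the wildtype-specific members 3.74% of theirs (3.35% to 4.16%). Taken over both lists, 4.91% of regions lay within 10 kb of an opposite one. Proximity to a region of the same list was more frequent, at 9.53% of rCGG-specific and 22.3% of wildtype-specific regions. None of these shares is adjusted for the number of regions in the neighbours' list, 8658 wildtype-specific and 4311 rCGG-specific. The rCGG-specific members covered 319 kb and the wildtype-specific members 218 kb, which is 7.34% and 2.68% of the bases of their lists.

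In the 10 closest pairs the opposite calls lay within 127 bp of each other. Only 1 pair overlapped, on chromosome 11, where a wildtype-specific region of 559 bp (chr11:107073551-107074109) and an rCGG-specific region of 780 bp (chr11:107073966-107074745) shared 144 bp. Its scores were 53.74 and 60.27, and a stricter requirement, an overlap of at least 50% of the shorter region, left 0 overlapping pairs. The lists hold opposite outcomes of a comparison of the same genotypes, which leaves little room for overlap, so its rarity is not a finding. On chromosome 7, a wildtype-specific region of 425 bp (chr7:97004715-97005139) was followed after 26 bp by an rCGG-specific region of 1398 bp (chr7:97005166-97006563). The order was the opposite in the next pair, on chromosome 11, where an rCGG-specific region of 1038 bp (chr11:99077571-99078608) was followed after 34 bp by a wildtype-specific region of 602 bp (chr11:99078643-99079244). A gap of 40 bp separated the regions of 502 and 831 bp on chromosome 19 (chr19:24727932-24728433 and chr19:24728474-24729304), wildtype-specific first. Gaps of 44 and 51 bp followed on chromosome 12 (chr12:21418343-21418837 and chr12:21418882-21419583) and chromosome 1 (chr1:33620864-33621296 and chr1:33621348-33622010), again with the wildtype-specific region first. The remaining pairs among the 10 closest lay on chromosomes 4, 7, 9 and 17, with gaps of 94, 94, 95 and 127 bp.

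**Figure D1:**
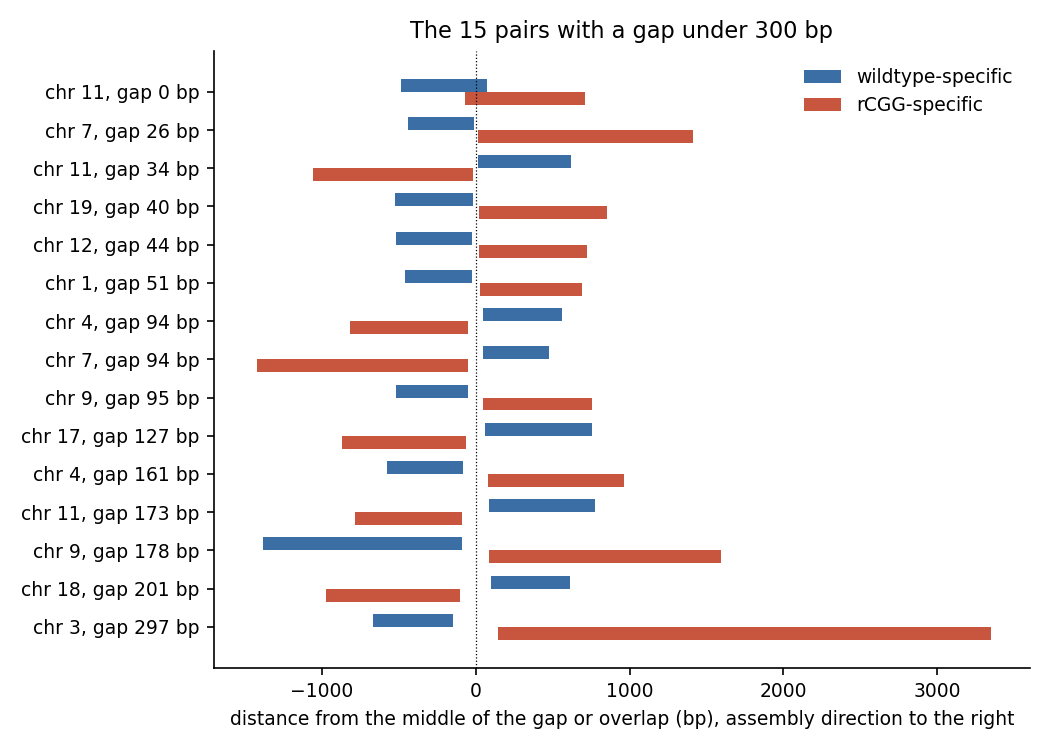
Layout of the 15 pairs with a gap under 300 bp. Each row is 1 pair, the x axis gives the distance in bp from the middle of the gap or overlap along the assembly, and bars span the wildtype-specific (blue) and rCGG-specific (red) region. In all 15 pairs the red bar is the longer one, against 83.8% of all 334 pairs, and in 9 the blue bar lies at the lower coordinate.

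In these 15 closest pairs the gained region was the wider one in every case (interval 78.2% to 100%). It was the wider one in 83.8% of all 334 pairs, a share inside that interval. Over all combinations of 1 region of each list the share was 64.3%. In the 15 pairs the rCGG-specific regions had a median of 831 bp (663 to 3197 bp). Their wildtype-specific partners had a median of 512 bp (425 to 1290 bp). Their median scores were 62.7 and 55.3. Scores of the lists were not compared with each other, since the lists were called separately and the scale is not stated, but each can be ranked within its list. Of the 15 wildtype-specific regions, 10 ranked below the median of the wildtype list (66.7%, interval 38.4% to 88.2%). Of the 15 rCGG-specific regions, 11 ranked above the median of the rCGG list (73.3%, 44.9% to 92.2%). Both intervals include an even split.

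The gaps of the 334 pairs spread evenly up to the limit. The median gap was 5198 bp, with quartiles at 2474 and 7704 bp. A total of 35 pairs had a gap under 1 kb, 73 under 2 kb and 162 under 5 kb. Each 1 kb class up to 10 kb held between 23 and 42 pairs, and the 10 classes from 10 to 20 kb held between 31 and 51. The last pair inside the limit had a gap of 9954 bp (chr10:98502560-98503362, wildtype-specific, and chr10:98513317-98514159, rCGG-specific), and the first pair outside it a gap of 10036 bp (chr6:119452105-119452491, wildtype-specific, and chr6:119462528-119463287, rCGG-specific). The counts show no step at 10 kb, so the limit sets how many pairs there are and does not separate a class of close pairs from the rest.

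**Figure D2:**
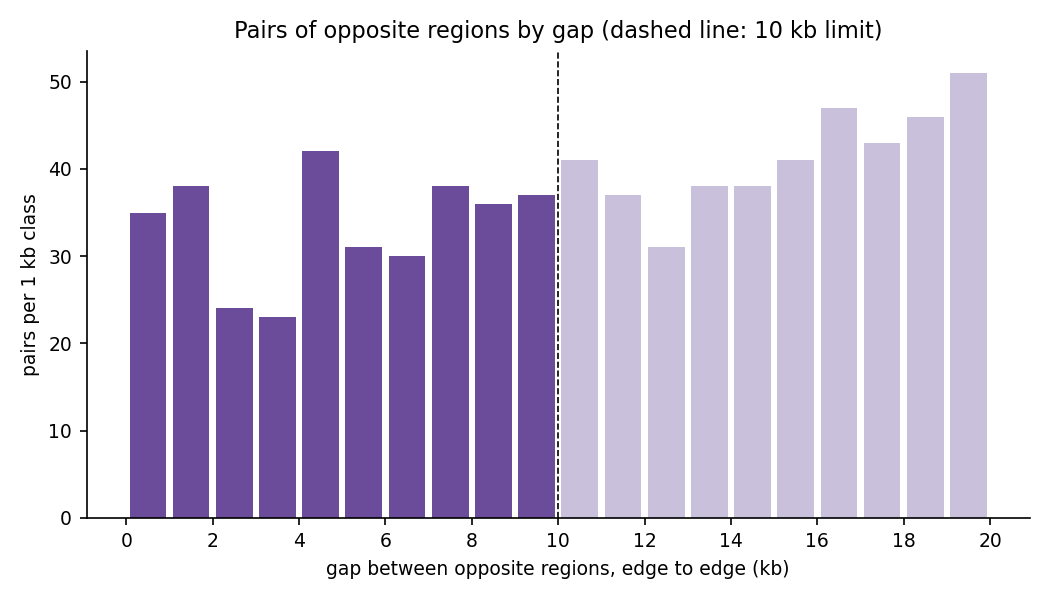
Number of pairs of opposite regions (y axis) in classes of 1 kb of the edge-to-edge gap (x axis, kb). Dark bars are the 334 pairs under 10 kb and pale bars the pairs from 10 to 20 kb. The class from 0 to 1 kb holds 35 pairs and that from 19 to 20 kb holds 51.

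To set these gaps beside the clustering within each list, the number of neighbours per Mb at a given gap was divided by the mean density of the neighbours' list, which was 3.41 wildtype-specific and 1.70 rCGG-specific regions per Mb. Around rCGG-specific regions, wildtype-specific regions lay at 1.14 times their mean density at gaps under 10 kb and at 1.38 times at gaps of 10 to 100 kb (exact Poisson interval 1.33 to 1.42). The first value restates the 334 pairs that the rule selected and is given as a description, with no interval. Wildtype-specific regions lay around each other at 4.06 times the mean density under 10 kb (3.84 to 4.30) and at 2.50 times from 10 to 100 kb (2.44 to 2.56). The rCGG-specific regions did so at 3.02 times (2.63 to 3.44) and 2.13 times (2.02 to 2.24). With the density of each region's own chromosome as the reference, the opposite neighbours stood at 1.09 times under 10 kb and 1.32 times from 10 to 100 kb. Neighbouring regions share a locus and are not independent, so these intervals are too narrow. The pairs can be described as local redistribution in the sense that a loss and a gain were listed side by side. The lists do not show whether signal moved from one to the other.

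**Figure D3:**
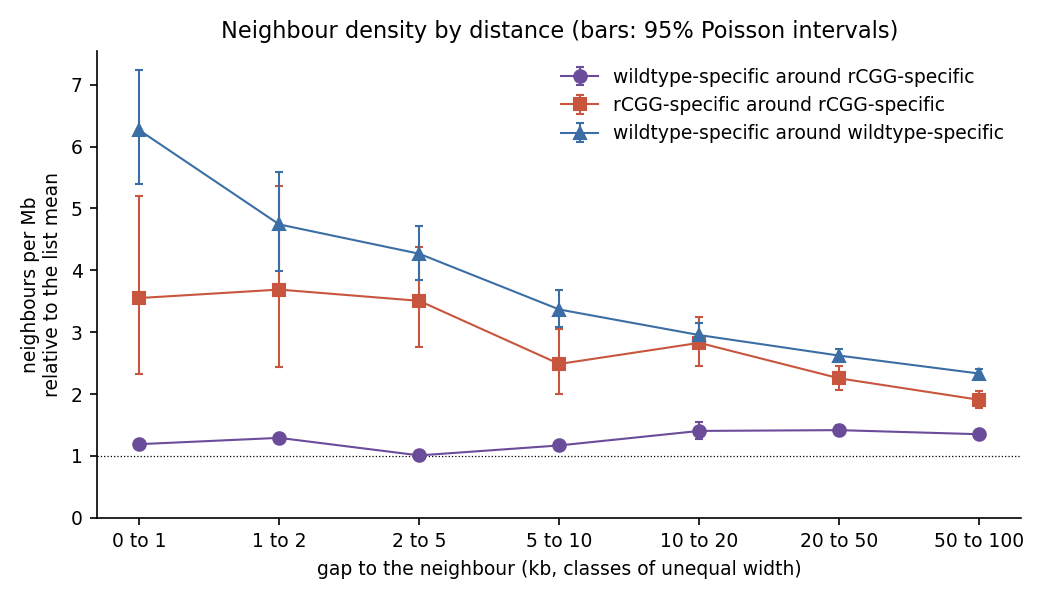
Density of neighbours relative to the mean of the neighbours' list (y axis) by gap (x axis, kb, classes of unequal width). Bars are 95% Poisson intervals, not drawn for opposite neighbours under 10 kb, which the rule selected, and the dotted line marks the list mean. Neighbours of the same list (red and blue) rise towards short gaps, from 1.91 and 2.33 at 50 to 100 kb to 3.55 and 6.27 under 1 kb, while opposite neighbours (violet) lie at 1.35 and 1.19.

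The wildtype-specific members were narrow. Their median width was 584.5 bp (interval 559 to 608 bp), with quartiles at 499 and 739 bp. The other wildtype-specific regions had a median of 696.5 bp (689 to 706 bp), and the intervals do not overlap. Wide regions were scarce among the members. Of the 324 members, 3 were over 2 kb (0.926%, interval 0.191% to 2.68%), against 596 of 8334 other regions (7.15%, 6.61% to 7.73%). Put the other way, 3 of the 599 wildtype-specific regions over 2 kb had an rCGG-specific region within 10 kb. Regions under 500 bp made up 25.6% of members (21.0% to 30.7%) and 15.5% of the others (14.8% to 16.3%). The median of the members was the lower on 18 of 19 autosomes, chromosome 19 with 9 members being the exception.

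The width of wildtype-specific regions graded with the distance to the nearest rCGG-specific region, with no step at 10 kb. The median was 539 bp for the 35 regions with an opposite region within 1 kb, 563 bp at 1 to 5 kb and 602 bp at 5 to 10 kb. Outside the limit it was 608 bp at 10 to 20 kb, 662 bp at 20 to 50 kb, 668 bp at 50 to 100 kb, 700 bp at 100 to 500 kb and 771 bp beyond 500 kb. Surroundings differed along with width: members had a median of 4 rCGG-specific and 5 other wildtype-specific regions within 500 kb, and the other wildtype-specific regions had 2 and 7. The rCGG-specific counts, here and in the next comparison, include the partner under 10 kb that every member has by the rule. The contrast of 4 and 2 is thus partly set by the selection. Among regions with at least 4 rCGG-specific regions within 500 kb, the medians were 592.5 bp in 170 members (557 to 615 bp) and 649 bp in 1768 others (623 to 668 bp). The difference there was -56.5 bp, against -112 bp over all regions. Among regions without a same-list neighbour under 10 kb it was -90.0 bp.

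The rCGG-specific members had the width of their list. Their median was 863 bp (831 to 899 bp), against 852 bp (844 to 861 bp) for the other rCGG-specific regions, and the intervals overlap. They were the narrower ones on 8 of 19 autosomes. Regions over 2 kb made up 3.83% of them (2.00% to 6.60%) and 5.43% of the others (4.75% to 6.18%). Across the distance classes up to 500 kb the median lay between 848 and 881 bp, and beyond 500 kb it was 792 bp.

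**Figure D4:**
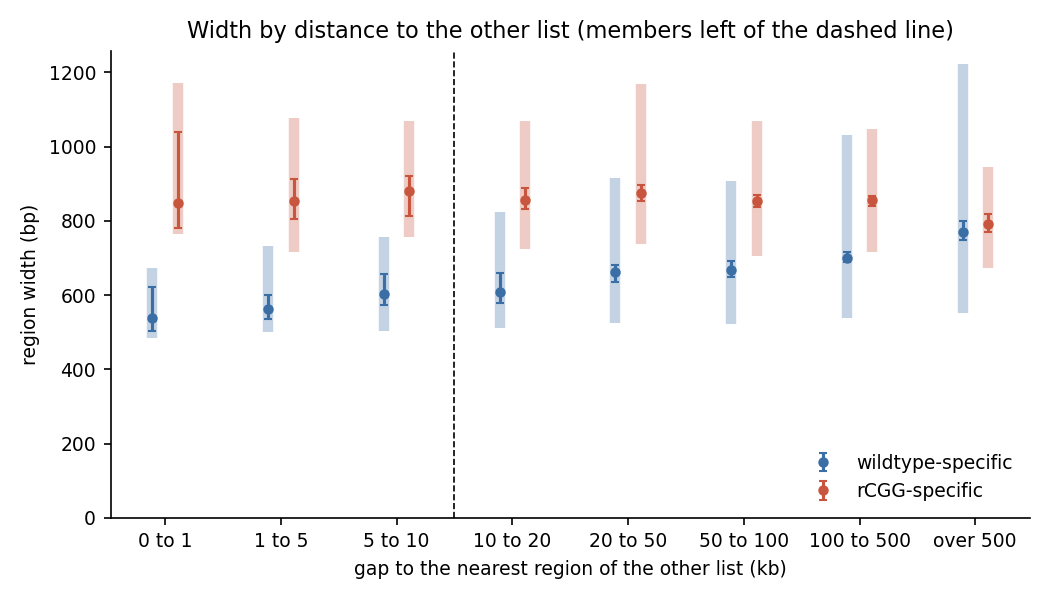
Region width in bp (y axis) by the gap to the nearest region of the other list (x axis, kb). Points are medians with 95% order-statistic intervals, pale bars are interquartile ranges, and members lie left of the dashed line. Wildtype-specific medians (blue) go from 539 bp at the shortest gaps to 771 bp beyond 500 kb, and rCGG-specific medians (red) from 848 to 792 bp.

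Within a pair, the rCGG-specific region was therefore usually the wider one. This held for 280 of 334 pairs (83.8%, interval 79.4% to 87.6%), and over all combinations of 1 region of each list it holds for 64.3%. The median ratio of widths, rCGG to wildtype, was 1.47 (interquartile range 1.12 to 1.87). The share was 88.6% under 1 kb (31 of 35 pairs), 85.8% at 1 to 5 kb and 81.4% at 5 to 10 kb, with overlapping intervals. The widths of paired regions had a Spearman's rho of 0.172 over the 334 pairs, some of which share a region. The widest pair lay on chromosome 5, where an rCGG-specific region of 5069 bp (chr5:107570857-107575925) followed a wildtype-specific region of 731 bp (chr5:107566240-107566970) after 3886 bp. On chromosome 13, an rCGG-specific region of 5011 bp (chr13:112904730-112909740) lay 8208 bp after a wildtype-specific region of 432 bp (chr13:112896090-112896521). In both, the gained region was broad and the lost region narrow. The other pairs among the 5 widest, on chromosomes 18 and 5, had rCGG-specific regions of 3361 and 3149 bp beside wildtype-specific ones of 1573 and 1370 bp, at gaps of 4405 and 4606 bp.

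Median scores of members lay close to those of their lists, while high scores were scarcer among wildtype-specific members than among the others. The median score was 59.12 (58.01 to 60.98) in rCGG-specific members and 59.35 in the other rCGG-specific regions, and 60.985 (59.07 to 63.06) in wildtype-specific members against 62.38 (62.03 to 62.94) in the others. The highest-scored regions of both lists were not among the members, whose scores reached 143.39 and 140.93. Members were only 7.26% of the rCGG-specific and 3.74% of the wildtype-specific list, so this absence is not read as a trait of the members. Wildtype-specific regions with a score of at least 100 made up 2.78% of members (1.28% to 5.21%) and 6.29% of the others (5.78% to 6.83%). These intervals do not overlap. The corresponding rCGG-specific shares were 4.79% (2.71% to 7.78%) and 3.53% (2.98% to 4.15%), with overlapping intervals. The scores of paired regions, ranked within each list, had a Spearman's rho of -0.0137 over 334 pairs.

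The closest pairs stood somewhat apart in rank. In the 35 pairs with a gap under 1 kb, 25 wildtype-specific regions (71.4%, 53.7% to 85.4%) ranked below the median score of their list and 27 rCGG-specific regions (77.1%, 59.9% to 89.6%) above that of theirs. At 1 to 5 kb the shares were 48.8% for both, and at 5 to 10 kb they were 52.9% and 41.9%. These gap classes were chosen after the values were seen.

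Pairs in which both regions had high scores were few, as were high scores in either list. Scores of at least 100 made up 3.62% of the rCGG-specific and 6.16% of the wildtype-specific list. Scores under 75 were found in 264 of 313 rCGG-specific and 265 of 324 wildtype-specific members. Among regions that were not members, they were found in 3326 of 3998 rCGG-specific and 6232 of 8334 wildtype-specific ones. The small number of such pairs is therefore not read as a trait of the pairs. Both scores were at least 75 in 9 of 334 pairs and at least 100 in 1 pair. That pair lay on chromosome 4, with a wildtype-specific region of 1318 bp and score 118.55 (chr4:114320941-114322258) and, 9291 bp after it, an rCGG-specific region of 756 bp and score 102.87 (chr4:114331550-114332305). On chromosome 5, scores of 108.69 (chr5:118975446-118976139, wildtype-specific) and 99.44 (chr5:118984032-118984844, rCGG-specific) were 7892 bp apart. The closest of the high-scored pairs lay on chromosome 12, where an rCGG-specific region of score 97.67 (chr12:4071223-4072104) was followed after 729 bp by a wildtype-specific region of score 104.28 (chr12:4072834-4073455). On chromosome 19, a wildtype-specific region of 1297 bp and score 95.21 (chr19:3426950-3428246) was followed after 1057 bp by an rCGG-specific region of 2771 bp and score 88.07 (chr19:3429304-3432074). This pair was also among the 5 widest. On chromosome 11, scores of 93.45 (chr11:90192797-90194078, wildtype-specific) and 115.73 (chr11:90199544-90200421, rCGG-specific) were 5465 bp apart.

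The order of loss and gain along the assembly was close to even. The wildtype-specific region had the lower coordinate in 188 of 334 pairs (56.3%, interval 50.8% to 61.7%). With 1 pair per connected group the share was 55.8% (169 of 303), and its interval, 49.99% to 61.5%, includes 50%. At a gap limit of 20 kb it was 51.8%. The direction of the assembly bears no relation to the strand of genes, which was not used here.

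Most pairs stood alone. The 334 pairs formed 303 connected groups, in which regions are linked through shared partners, and 274 of these (90.4%) held 1 region of each list. Of the 313 rCGG-specific members, 21 had 2 partners, and of the 324 wildtype-specific members, 10 had 2. A total of 27 groups held 3 regions, 19 of them with 2 wildtype-specific and 8 with 2 rCGG-specific ones. In 9 of the 19 the rCGG-specific region lay between the wildtype-specific ones, and in 1 of the 8 the wildtype-specific region lay between the rCGG-specific ones. These counts are not adjusted for the larger number of wildtype-specific regions or their closer spacing. Groups spanned a median of 7.37 kb.

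Loss and gain alternated in the 2 groups with 4 regions. Groups are linked only through opposite regions, so this alternation is partly set by how they were formed. On chromosome 12, within 14.3 kb (chr12:4071223-4085569), an rCGG-specific region of 882 bp was followed after 729 bp by a wildtype-specific one of 622 bp. After a further 1053 bp came an rCGG-specific one of 1513 bp, and after 9139 bp a wildtype-specific one of 409 bp. On chromosome 3, regions of 501, 559, 767 and 563 bp alternated in the same order over 26.4 kb (chr3:84432202-84458623), with gaps of 9150, 7707 and 7175 bp and scores of 51.8, 58.54, 83.01 and 61.89. The tightest groups of 3 spanned 4.35 kb on chromosome 5 (chr5:67754740-67759092), 4.45 kb on chromosome 17 (chr17:64657171-64661615) and 5.65 kb on chromosome 14 (chr14:22076639-22082288). In the chromosome 5 group, an rCGG-specific region of 595 bp preceded a pair of wildtype-specific regions of 510 and 465 bp that lay 292 bp apart. The chromosome 17 group had a wildtype-specific region of 694 bp between rCGG-specific regions of 807 and 850 bp, at gaps of 127 and 1967 bp.

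Wildtype-specific members were less often close to a region of their own list than the other wildtype-specific regions. A wildtype-specific region within 10 kb was found for 37 of 324 wildtype-specific members (11.4%, 8.17% to 15.4%) and for 1896 of 8334 other wildtype-specific regions (22.8%, 21.9% to 23.7%). For rCGG-specific regions the shares of members and others, 8.63% (5.76% to 12.3%) and 9.60% (8.71% to 10.6%), had overlapping intervals.

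Pairs were spread over all 19 autosomes. The share of rCGG-specific regions that were members ranged from 4.21% on chromosome 13 (8 of 190; interval 1.84% to 8.13%) to 9.38% on chromosome 11 (18 of 192; 5.65% to 14.4%), and these intervals overlap. The share of wildtype-specific regions ranged from 2.24% on chromosome 15 (9 of 402; 1.03% to 4.21%) to 7.27% on chromosome 3 (25 of 344; 4.76% to 10.5%). These intervals do not overlap, but both chromosomes were picked as the extremes of 19. Chromosome 3 had the fewest wildtype-specific regions per Mb among the autosomes, 2.30, and 1.82 rCGG-specific regions per Mb. On chromosome 15 these densities were 4.02 and 1.64. The number of pairs per Mb ran from 0.0684 on chromosome 13 to 0.181 on chromosome 14, with 0.180 on chromosome 3. Over the 19 autosomes its Spearman's rho was 0.0491 with the density of wildtype-specific and 0.184 with that of rCGG-specific regions, where each chromosome gives 1 point from the same 2 lists. The X chromosome held 0 members among 23 rCGG-specific and 55 wildtype-specific regions, for which the limit of 3 counts is a share of 13.0% and 5.45% and the upper bound of the 95% exact interval is 14.8% and 6.49%. Its densities were 0.144 rCGG-specific and 0.345 wildtype-specific regions per Mb, against at least 1.42 and 2.30 on the autosomes. The absence of pairs is therefore not read as a trait of X.

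**Figure D5:**
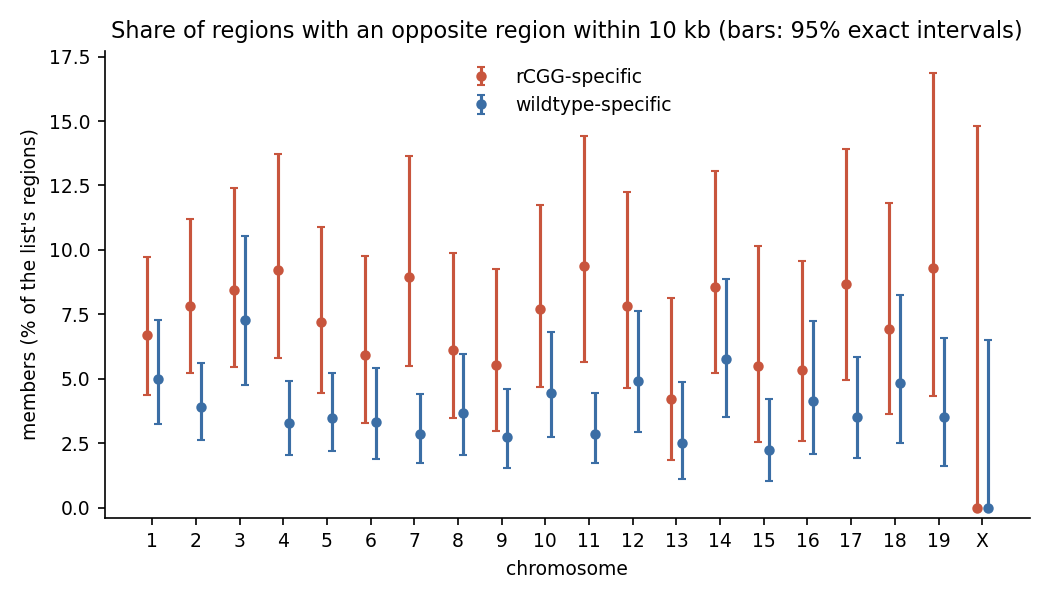
Members as a percentage of each list's regions (y axis) on each chromosome (x axis), with 95% exact binomial intervals. The rCGG-specific shares (red) run from 4.21% to 9.38% on the autosomes and the wildtype-specific shares (blue) from 2.24% to 7.27%, and X has 0 in both.

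Few megabases held several pairs. Of the 1 Mb windows with a pair, 221 held 1, 41 held 2, 9 held 3 and 1 held 4. That window, on chromosome 10 at 84000001-85000000, had 10 rCGG-specific and 6 wildtype-specific regions, of which 3 and 3 were members. In it, a wildtype-specific region of 885 bp (chr10:84436477-84437361, score 78.26) was followed by rCGG-specific regions of 831 bp after 1377 bp (chr10:84438739-84439569) and of 1094 bp after 4744 bp (chr10:84442106-84443199). Farther along the window the order was reversed, with an rCGG-specific region of 716 bp (chr10:84636010-84636725) followed by wildtype-specific regions of 557 bp (chr10:84641755-84642311) and 1110 bp (chr10:84644281-84645390). The windows with 3 pairs lay on chromosomes 3, 4, 11, 12, 14, 17 and 19.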

How the data were processed

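Captured 5hmC libraries of 3 wildtype and 3 rCGG cerebella were compared by the authors, who deposited the outcome as 2 lists of regions. Per the submitters' processing notes, the tools included Bowtie 0.12.9 for alignment and HOMER, on build mm9. Peak names follow the form of MACS; for this caller, the version, settings, control and any pooling of libraries are not given. The authors deposited 1 score per region without a header. Its minimum is 50 in either list, its scale is not stated, and it served only for ranks and thresholds within a list. Coordinates are mm9, counted from 1.

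Pairs, gaps, connected groups and widths were computed with Python 3.11.15, numpy 2.4.6, pandas 2.3.3 and scipy 1.17.1, and the pair search was tested on simulated regions. Intervals are Clopper-Pearson for shares, exact Poisson for densities and binomial order statistics for medians, at 95%. For a count of 0 the limit is 3 counts. No test was run, because no values per animal were used here. Depth per library is unknown. The rule for named pairs takes the overlapping one, the 10 closest, the 5 with the highest lower score percentile, the 5 widest, the 5 largest connected groups and the pairs at the limit. The window with most pairs was chosen after its value was seen. The members and these rules were chosen with earlier results of these data known. Descriptions of genes, gene lists and sequence were planned and not made, since they need an mm9 annotation or genome, not used here.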

Additional observations from a re-analysis of the deposited data

How the results depend on the processing

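The number of pairs follows the gap limit and the score. It was 334 at 10 kb, 73 at 2 kb, 162 at 5 kb and 747 at 20 kb, with 73, 160 and 664 rCGG-specific and 71, 158 and 692 wildtype-specific members. Midpoint distances, merging regions of 1 list closer than 1 kb and leaving out X gave 301 to 334 pairs. X held 0 members, so leaving it out could not change the pairs. At a score of at least 75 there were 9 pairs with 9 members of each list, too few for a description: the wildtype-first share was 77.8%, and the differences of medians, members minus others, were 57.5 bp and 17.7 score units for rCGG-specific and 50.5 bp and 6.46 score units for wildtype-specific regions, of opposite sign to the main values except the first. For wildtype-specific width the difference was -112 bp, -143 bp at 2 kb, -87.5 bp without regions over 2 kb and -56.5 bp with at least 4 opposite regions within 500 kb; the last 2 settings, like the other comparisons within part of a list, were added with the data in view. The wildtype-specific score difference at 2 kb was -3.99. At 20 kb there were 612 connected groups, 110 of them with 3 or more regions (303 and 29 at 10 kb). Relative densities changed to 1.32 (opposite), 1.99 (rCGG) and 2.25 (wildtype) at 10 to 100 kb, and 3.65 (wildtype, under 10 kb), with the own chromosome as reference, and the last to 3.33 after merging. The overlapping pair was lost (0) at an overlap of at least 50% of the shorter region. In all, 58 of 87 alternative values stayed within the interval, or within 1.5 times the count, of the main value. The values without X are among the 58 and had little or no room to change. No paired analysis was possible because positions and scores are given per list and not per animal, and leaving out single animals was likewise impossible. Unknown depth limits how the sizes of the lists, and so the number of pairs, can be read.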
